A study of Mus musculus with 30 samples.

Results

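Smarca4, Smarca2, Smarca1, Chd1, Chd2, Chd4, Chd7, Chd8, Atrx and Smarcad1 are 10 genes for the ATPase subunits of chromatin remodellers other than SRCAP. They were taken as a list of names by matching the gene identifiers of the count tables to GENCODE mouse symbols, so they make up 10 of the 55401 genes counted, chosen by name with earlier results of these data known. Nuclear RNA of mouse embryonic stem (ES) cells was sequenced in 30 libraries, with 2 replicates for each of 15 groups, to follow transcription after rapid loss of SRCAP, the ATPase that exchanges H2A for the histone variant H2A.Z. Each gene had an exon count, described first, and an intron count, described beside it.

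CGR8 is the parental ES cell line, which has no degron, and its libraries came from control cells and from cells given 500 µM of the auxin IAA (indole-3-acetic acid) for 4 h. SYAT cells derive from CGR8, carry YPet and the AID degron on SRCAP at both alleles, and express the OsTir1 receptor, so that IAA removes the SRCAP protein. SYAT control cells were kept in auxinole, an inhibitor of Tir1, and the time course compared them with cells that had spent 2 to 8 h in 500 µM IAA, sampled every 2 h. SYAT cells that also express a mitotic degradation reporter were sorted in early G1 (EG1) or late G1 (LG1), with and without 1 h of 500 µM IAA. SYAT cells were also given doxycycline-inducible wild-type SRCAP (wtSRCAP) or a catalytically dead form mutated in its ATPase domain (cdSRCAP), each fused to mCherry. All their libraries came after 24 h of 1 µg/mL doxycycline, and their treated groups had 500 µM IAA for 4 h. Controls of both lines were left in auxinole. The study describes sorting these cells for high and similar mCherry levels before nuclear RNA-seq. All cells were in serum and LIF medium. SYAT cells go back to a homozygous clone of the knock-in that was transduced with OsTir1 and sorted, and 1 clone each stands for wtSRCAP and cdSRCAP, so that clone and SRCAP form cannot be told apart.

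Chromatin remodellers of this kind share a SNF2-type ATPase motor that uses ATP to move along nucleosomal DNA, and they differ in the domains and partner subunits around it. The outcome can be a nucleosome that is slid, spaced, evicted or exchanged for a variant. In ES cells the SWI/SNF (BAF) and NuRD complexes are known for opening and closing regulatory elements, respectively, and both are needed for an orderly exit from pluripotency.

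The motor is recognised by a short box, after which SNF2 enzymes are sometimes named, and the coding bases around it show what the 10 genes have in common. In the GENCODE vM21 transcripts (GRCm38), each gene held 1 match to the box with a lysine and an asparagine a few residues after it. The box was DEAH in 6 genes and DEGH in 4. The codons of the box are in capitals, 5′ to 3′ on the coding strand.
Smarca4: gtgGATGAAGGCCACcgcatgaaaaac
Smarca2: gtgGACGAAGGCCACcggatgaagaat
Smarca1: atcGATGAAGCTCACagaataaaaaat
Chd1: gttGATGAAGCGCATcgattaaagaat
Chd2: gtaGATGAAGCCCATcggttgaagaat
Chd4: gtgGATGAAGCCCATcggctgaagaac
Chd7: atcGATGAAGCCCACaggctgaagaac
Chd8: attGATGAAGCCCATaggctgaagaac
Atrx: tgtGATGAAGGCCATattctaaaaaat
Smarcad1: tttGATGAAGGCCATatgctgaagaat
These stretches lie in exons, at chr9:21667187-21667213 (+) in Smarca4, chr19:26681892-26681918 (+) in Smarca2, chrX:47876397-47876423 (-) in Smarca1, chr17:15738518-15738544 (+) in Chd1, chr7:73490607-73490633 (-) in Chd2, chr6:125108758-125108784 (+) in Chd4, chr4:8828340-8828366 (+) in Chd7, chr14:52219639-52219665 (-) in Chd8, chrX:105839935-105839961 (-) in Atrx and chr6:65096101-65096127 (+) in Smarcad1. Despite the shared motor, no stretch of 75 bases, the read length, occurred in the transcripts of more than 1 of the 10 genes. Reads of Chd2 can be shared with genes that overlap it, since 17.3% of its 75-base stretches also occurred in other genes, mostly 1810026B05Rik, and for Chd8 the share was 3.96%, mostly with Gm26590. Smarca2 overlaps the antisense genes Gm20616 and 4931403E22Rik but shared 0 stretches. Smarca4 shared 0.423% of its stretches (with Gm27373) and Smarcad1 0.036% (with Srpk1), and Mir7045 lies within an exon of Chd4. Whether the counting used strand is not given in the sources used here. The counts of genes with such overlaps or shared stretches, foremost Chd2 and Chd8, are therefore less certain. Chd7, on chromosome 4 from 8690406 to 8867659 (+), has no overlapping gene and shared 0 stretches.

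Exon counts summed to 45.62 to 60.22 M (mega-counts) in CGR8 libraries, 17.54 to 22.87 M in the time course, 19.74 to 26.67 M in sorted cells and 12.24 to 26.37 M in wtSRCAP and cdSRCAP cells. The 8 ES cell markers (among them Pou5f1, Nanog and Esrrb) summed to an RPKM (exon counts scaled to exon length in kb and to library total) of 987 to 2725 over the 30 libraries, and 8 markers of differentiated cells (among them Gata6, Pax6 and T) to 9.48 to 45.0. Degradation acts on the protein, and Srcap exon counts were 815 and 936 per library, on the scale of the time course, in control and 917 to 1231 with IAA, so its RNA does not check the treatment. The second 6 h library stood apart in the time course, with an ES cell marker sum of 1826 against 1044 to 1434 in the other 9 libraries. Among wtSRCAP and cdSRCAP cells, the replicates of a group differed more than in the other tables, with a median biological coefficient of variation of 0.291 in exons against 0.193 to 0.204. The intron columns of the time course and of EG1 also held exonic reads, because 53.1% and 44.7% of the single-exon genes with 20 or more exon counts had intron counts there, against 0.0537% to 0.0959% in the other tables. For those tables the intron column is therefore called the gene-body column below.

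In control cells the 10 genes spanned almost the whole range from abundant to barely detected, and the order was much the same in every line. Chd4, the ATPase of NuRD, which pairs remodelling with histone deacetylation, had the highest level in all 6 control groups, at an RPKM of 187.5 ± 9.9 (SD, n = 2) in SYAT cells. Smarca4 (BRG1), the ATPase of SWI/SNF complexes in ES cells, came next at 67.6 ± 5.44, and Chd1, which acts on nucleosomes of transcribed genes, followed at 38.0 ± 0.495. These 3 genes held the same places in CGR8, EG1, LG1, wtSRCAP and cdSRCAP control cells, and in each group their libraries did not overlap those of the next gene.

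The middle of the order was less fixed. In SYAT cells Chd8, a close relative of Chd7 that is mutated in some cases of autism, stood at 27.6 ± 3.32, followed by Smarcad1 at 14.8 ± 2.26 and Atrx with 11.7 and 16.3 in its 2 libraries, which overlapped those of Smarcad1. Smarcad1 helps to keep heterochromatin through replication and to resect DNA ends, and Atrx deposits histone H3 variants at repeats and telomeres together with Daxx. Chd7, which binds enhancers and is mutated in CHARGE syndrome, stood at 11.1 ± 0.141, and Smarca1, the less used of both ISWI motors in ES cells, and Chd2, a close relative of Chd1, at 6.28 ± 0.41 and 5.7 ± 1.17 with overlapping libraries.

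Chd7 had rank 4 in EG1 and LG1 controls, with 18.8 and 22.8 in the EG1 libraries and 17.9 and 22.1 in the LG1 libraries, where its libraries overlapped those of Chd8 next below, and rank 6 or 7 in the other 4 control groups. These tables were made from separate experiments and their levels were not tested against each other. Smarca2 (BRM), the alternative ATPase of SWI/SNF, was last in all 6 groups, at 0.259 ± 0.046 in SYAT cells. Over all libraries it made up 0.145% to 0.744% of the sum of Smarca2 and Smarca4 per exon length.

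**Figure D1:**
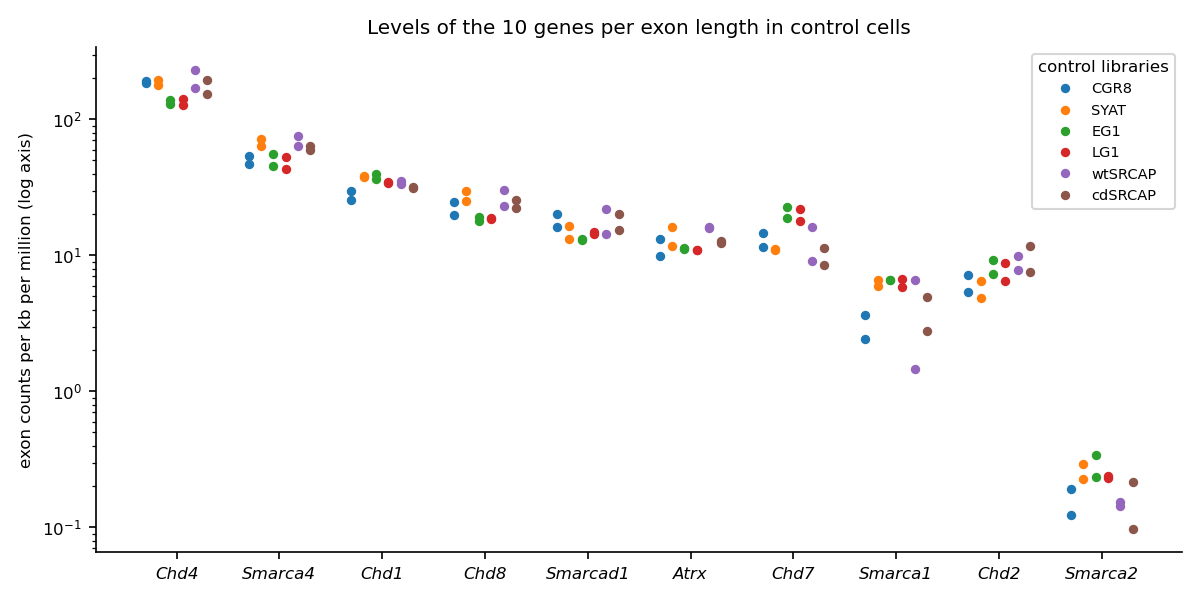
RPKM of exon counts (log axis) for the 10 genes in the 12 control libraries, each point a library and each colour a control group. Chd4, Smarca4 and Chd1 lead in every group and Smarca2, between 0.0966 and 0.342, lies far below the other genes.

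The time course asks which of these genes respond as SRCAP disappears. Chd7 had the largest differences of the 10 genes at each time, with higher counts in every IAA library than in both controls from 2 h onwards, but its change did not pass the threshold of an adjusted p under 0.05 and an absolute log2 fold change over 0.5 by edgeR's quasi-likelihood test with Benjamini-Hochberg adjustment. By that test 0 of 10 genes were called at 2, 4, 6 and 8 h, where 0%, 0%, 0.0677% and 0.00521% of the 19205 genes tested were called. At an unadjusted p under 0.05 the count was 0 at 2 h and 1 (Chd7) at 4, 6 and 8 h, against 3.92%, 9.09%, 16.1% and 13.6% of all genes in either direction. DESeq2 called 0, 0, 1 and 1 of the 10, again Chd7, where it called 0.0509%, 0.859%, 3.98% and 2.27% of the genes it tested. The 4 comparisons share the same 2 control libraries. The p-values rest on the spread between these replicates, which the study describes as cells cultured and treated independently.

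Normalized exon counts of Chd7 were 3076 and 2991 in control, 3761 and 3456 at 2 h, 4653 and 4278 at 4 h, 5014 and 5197 at 6 h, and 4372 and 4850.0 at 8 h. The 8 IAA libraries all lay above both control libraries, and both 6 h libraries lay above every other library. The difference was 0.25 on the log2 scale at 2 h, where the unadjusted p of 0.0604 did not reach 0.05.

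At 4 h the log2 fold change of Chd7 was 0.56 ± 0.119 (SE, 1.47-fold, adjusted p = 0.184 by edgeR's quasi-likelihood test). At 6 h it was 0.75 ± 0.119 (1.68-fold, edgeR adjusted p = 0.0533), which gave Chd7 rank 30 of 19205 genes by p-value. At 8 h it was 0.60 ± 0.119 (1.52-fold, edgeR adjusted p = 0.0788). The 6 h and 8 h values thus lay just outside the threshold, and several changes in the processing brought both inside it, among them DESeq2, no filter on low counts and a block for replicate number. DESeq2 gave shrunken log2 fold changes of 0.68 (adjusted p = 0.0008) at 6 h and 0.55 (adjusted p = 0.0151) at 8 h, and edgeR without a filter on low counts gave adjusted p = 0.00134 and 0.0306. With 1 library left out, the edgeR adjusted p at 6 h ran from 0.00411 (without the first 6 h library) to 0.471. Over the other alternatives it ran from 6.69e-05 to 0.429 at 6 h and from 0.00266 to 0.139 at 8 h, the highest being fits of the compared groups alone. The markers of differentiated cells summed to an RPKM of 31.3 and 19.1 in control and to 24.3 to 40.4 with IAA. The 4 mitosis markers (Ccnb1, Cdc20, Plk1 and Aurka) summed to 382.8 and 429.1 in control and to 434.9 to 477.9 with IAA, so that, like Chd7, they lay above both controls in all 8 IAA libraries. At 6 h Cdc20 had a log2 fold change of 0.50 (unadjusted p = 0.00913, adjusted p = 0.172, edgeR) and Aurka 0.43 (unadjusted p = 0.0182, adjusted p = 0.216). The part of these markers in the Chd7 values was not tested.

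The gene-body column of Chd7 gave the same order, with 4089 and 3971 counts in control, 5322 and 4966 at 2 h, 6178 and 6283 at 4 h, 6945 and 6905 at 6 h, and 5711 and 7289.7 at 8 h. The groups did not overlap at any time. Log2 fold changes were 0.35 ± 0.136 at 2 h, 0.63 ± 0.137 at 4 h, 0.78 ± 0.137 at 6 h and 0.69 ± 0.137 at 8 h. Unadjusted p-values were 0.0326, 0.00178, 0.000462 and 0.00101 and adjusted p-values 0.93, 0.221, 0.107 and 0.128 by edgeR. No other of the 8 genes with counts in this column had an unadjusted p under 0.05, while 5.13%, 9.5%, 14.5% and 13.5% of all genes did, and edgeR called 0 of the 8 against 0%, 0%, 0.0136% and 0.00679% of all genes. At 2 h DESeq2 called 0 of them. DESeq2 called Chd7 in this column at 4, 6 and 8 h (adjusted p = 0.00747, 9.98e-05 and 0.00119), and over all alternatives that keep all libraries the adjusted p ran up to 0.29, 0.297 and 0.339. DESeq2 called 0.301%, 1.56%, 3.47% and 2.96% of all genes in this column at the 4 times.

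Since the gene-body column repeats exonic reads, the exon count was taken off it library by library, with negative values set to 0. Chd8 was then at 0 in all 10 libraries, so the column does not hold every exonic read. What remains is therefore only a rough measure of intron reads. Before scaling, the Chd7 remainder was 865 and 1096 in control, 1365 and 1662 at 2 h, and 1217 and 2592 at 4 h. It was 1791 and 1242 at 6 h, and 1142 and 3716 at 8 h. Chd7 then had log2 fold changes of 0.60 ± 0.172 at 2 h, 0.72 ± 0.172 at 4 h, 0.83 ± 0.172 at 6 h and 0.69 ± 0.172 at 8 h. Unadjusted p-values were 0.00903, 0.0035, 0.00157 and 0.0043 and edgeR's adjusted p 0.302, 0.249, 0.183 and 0.222, and the difference between these values and those of the exons was not tested. Over the 10138 genes with such a value, 10.7%, 11.2%, 13.7% and 13.2% were below an unadjusted p of 0.05.

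**Figure D2:**
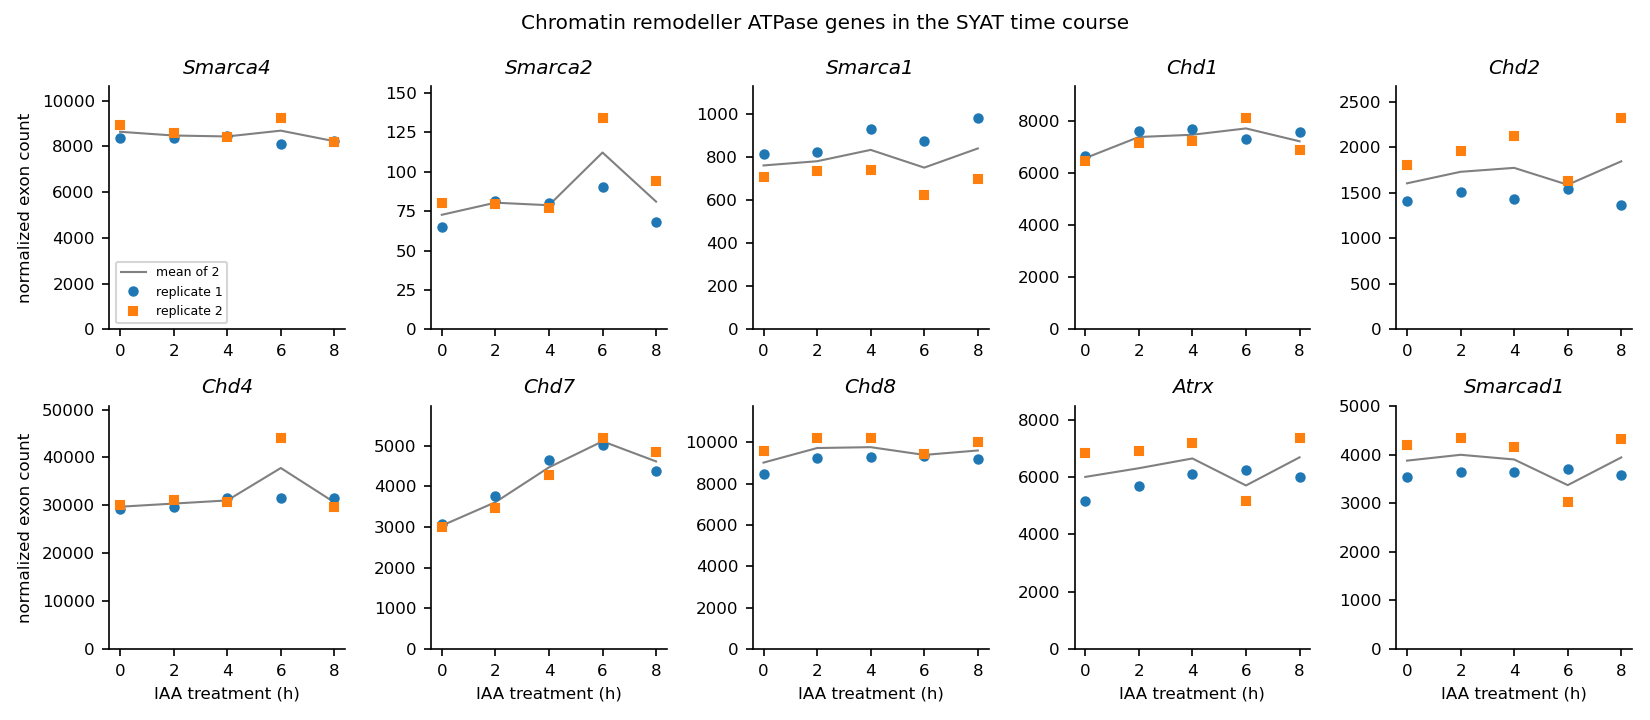
Normalized exon counts of the 10 genes (linear axes from 0) against hours of IAA in SYAT cells, with each replicate as a point and the mean of 2 as a grey line. Chd7 lies at 2991 to 3076 in control and at 5014 to 5197 at 6 h, while Smarca2 and Chd4 are high in the second 6 h library only.

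Neither SWI/SNF motor passed the test at any time. Smarca4 had 8348 and 8924 normalized exon counts in control, 8354.5 and 8591 at 2 h, 8454 and 8409 at 4 h, 8121 and 9250.5 at 6 h, and 8253 and 8195 at 8 h. The 8 h libraries were both below the controls, by 0.07 on the log2 scale, and the other times overlapped them. Smarca2 had 65.2 and 80.2 in control, 81.3 and 79.4 at 2 h, 80.4 and 77.1 at 4 h, 90.1 and 134.3 at 6 h, and 68.0 and 94.0 at 8 h. Its 6 h libraries lay above the controls (log2 0.62, unadjusted p = 0.0576, edgeR), mostly through the second of them. Smarca2 and Smarca1 were at 0 in the gene-body column of all 10 libraries although their exons were counted, so nothing can be said of their introns here.

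Smarca1, which spaces nucleosomes as part of ISWI complexes, had 814 and 707 counts in control, 823 and 737 at 2 h, 928 and 737.5 at 4 h, 876 and 625 at 6 h, and 982 and 697 at 8 h. The second replicate was the lower of the pair in every group, and no group separated from control.

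Among the CHD enzymes, Chd1 was the other gene whose IAA libraries all lay above control in exons, with 6657 and 6464 in control, 7586 and 7153 at 2 h, 7693 and 7219.5 at 4 h, 7288 and 8109 at 6 h, and 7549 and 6862 at 8 h. Its differences were between 0.14 and 0.23 on the log2 scale and none reached an unadjusted p of 0.05. Chd2 had 1409.7 and 1802 in control, 1505 and 1960.1 at 2 h, 1428 and 2123.5 at 4 h, 1546 and 1634 at 6 h, and 1368 and 2328 at 8 h. Its replicates lay further apart than its groups, so no response was detectable in exons. In the gene-body column Chd2 lay above both controls (2758.5 and 3121) at 2 h and 6 h and overlapped them at 4 h and 8 h. Its largest log2 difference there was 0.50 at 8 h (unadjusted p = 0.0906, edgeR). Chd1 lay above both controls (7196 and 7546) at every time in that column, at 7677 to 8966 with IAA.

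Chd4 had 29314.5 and 30108 in control, 29716 and 31021 at 2 h, 31456 and 30594 at 4 h, 31437 and 44146 at 6 h, and 31619.5 and 29635 at 8 h. The second 6 h library was far above all others, and both 4 h libraries also lay above control. The 6 h difference was 0.35 (unadjusted p = 0.0525, edgeR), was 0.08 without the second 6 h library and was 0.58 (edgeR adjusted p = 0.00755) without the first. Chd8 had 8476 and 9576 in control, 9265 and 10198.5 at 2 h, 9309 and 10238 at 4 h, 9335 and 9461 at 6 h, and 9194 and 10032 at 8 h, with overlap at every time in exons. In the gene-body column Chd8 lay above both controls (5216 and 5613) at every time, at 5624 to 6163 with IAA.

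Atrx had 5160.0 and 6848 in control, 5693 and 6921 at 2 h, 6103 and 7193 at 4 h, 6253 and 5158.5 at 6 h, and 5997 and 7376.5 at 8 h. Smarcad1 had 3549 and 4206 in control, 3643 and 4352 at 2 h, 3638 and 4164 at 4 h, 3711 and 3035 at 6 h, and 3572 and 4315 at 8 h. For both genes the second replicate was the higher of the pair in every group except at 6 h, where it was the lower, and all groups overlapped control. Across the 10 libraries, Atrx and Smarcad1 had a Pearson r of 0.913 and Atrx and Chd8 of 0.821 in log2 counts. Both values are given as a description and were not tested.

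Counting libraries that did not overlap control, 2 of the 10 genes were higher at 2 h, 3 at 4 h, 4 at 6 h and 2 at 8 h in exons, where 18.6%, 21.7%, 21.5% and 20.9% of all genes were. None was lower at 2, 4 and 6 h and 1 (Smarca4) at 8 h, against 21%, 24.1%, 22.2% and 24% of all genes. In the gene-body column 4, 3, 5 and 3 of the 8 genes with counts there were higher, where 21.6%, 21.4%, 21.0% and 20.2% of all genes tested were. There 0 were lower, against 23.5%, 24.6%, 23.6% and 23.5% of all genes. The median log2 fold change of the 10 genes was 0.09, 0.12, 0.03 and 0.14 at the 4 times, and the median of all genes tested was 0.00, 0.02, 0.01 and 0.03. The 5 genes with exon counts most like those of Chd7 over the 10 libraries, among 19204 compared, were Dlgap4 (r = 0.969), Epb41l1 (0.965), Afap1 (0.965), Gm43445 (0.965) and Rab26 (0.963).

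IAA itself was checked in CGR8 cells, where there is no degron. Chd7 had 8887 and 10304.5 normalized exon counts in control and 10696 and 9689 after 4 h of IAA, so that the groups overlapped (log2 0.09, unadjusted p = 0.542, edgeR). None of the 10 genes was called in exons or introns by edgeR or DESeq2 and none had an unadjusted p under 0.05, against 9.16% of all genes in exons and 5.24% in introns, where edgeR called 0.00988% and 0.022% and DESeq2 0.962% and 0.186%. Chd4 was the gene nearest to a difference, with 83056 and 79064 counts in control and 72142 and 62767 with IAA (log2 -0.27, unadjusted p = 0.0676, edgeR). In exons 1 gene (Smarcad1) lay above control in both libraries and 3 (Chd1, Chd2 and Chd4) below it, where 21.6% and 20.6% of all genes did. The CGR8 and SYAT tables were normalized separately, and the difference between their responses was not tested.

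**Figure D3:**
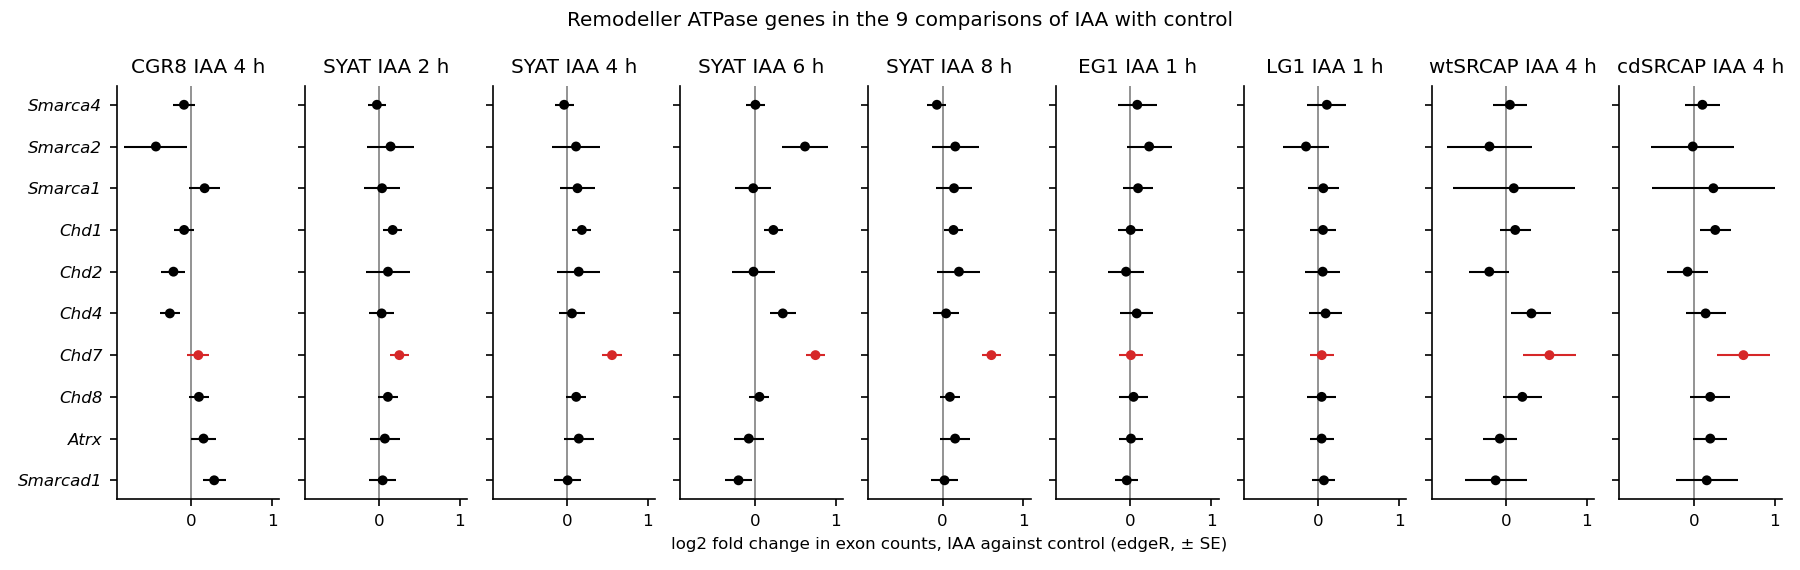
Log2 fold changes of exon counts (edgeR, bars ± SE) of the 10 genes in the 9 comparisons of IAA with control, with Chd7 in red. Chd7 lies at 0.56, 0.75 and 0.60 at 4, 6 and 8 h in SYAT cells, at 0.54 and 0.61 in wtSRCAP and cdSRCAP cells, and at 0.01 to 0.09 in CGR8, EG1 and LG1 cells.

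In the sorted cells, 1 h of IAA was compared with control to separate loss of SRCAP during mitosis (EG1) from loss during G1 (LG1). Chd7 had 6640.4 and 5856 counts in EG1 control and 6289 and 6262 with IAA, and 6684 and 5963 in LG1 control and 6989.5 and 6050.0 with IAA. Treated and control libraries overlapped in both phases (log2 0.01 and 0.04). Over the 10 genes log2 fold changes ran from -0.05 (Chd2) to 0.23 (Smarca2) in EG1 and from -0.15 (Smarca2) to 0.11 (Smarca4) in LG1. By edgeR 0 genes were called and 0 had an unadjusted p under 0.05 in either phase, where 1.22% and 1.02% of all genes had one and 0% were called. DESeq2 called 0 as well, against 0% of all genes. The looser rule for sorted cells, an unadjusted p under 0.05 with an absolute log2 fold change over 0.25, also gave 0. At most the same 1.22% and 1.02% of all genes can meet it. The difference between the phases ran from -0.38 (Smarca2) to 0.12 (Smarcad1), with 0.366 as the smallest unadjusted p (edgeR).

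In the intron column of LG1, which held no exonic reads, Chd7 had 5146 and 4391 counts in control and 6948 and 5042 with IAA (log2 0.33, unadjusted p = 0.156, edgeR), with overlap. In this column 9 of the 9 genes with counts had a value above 0, between 0.02 (Smarca4) and 0.90 (Smarca2). Of these 9, 5 (Smarca1, Chd1, Chd2, Atrx and Smarcad1) lay above control in both libraries, where 13.3% of all genes did. The value of Smarca2 rests on few counts, 12.35 and 50.59 in control and 37.06 and 81.26 with IAA, which overlap. None of the 9 reached an unadjusted p of 0.05, the smallest being 0.12, while 3.94% of all genes did, and 0 were called by edgeR (0% of all genes) or DESeq2 (0.0807%). The median of these genes was 0.30 against 0.03 for all genes tested. Between LG1 and EG1 control cells exon differences ran from -0.21 (Smarca2) to 0.24 (Smarcad1), with 0 genes called and 0 at an unadjusted p under 0.05 by edgeR, against 1.44% of all genes. DESeq2 also called 0, and both tests called 0% of all genes.

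In wtSRCAP and cdSRCAP cells, loss of the endogenous protein was followed with the wild-type or the catalytically dead form present. Chd7 had 4009.7 and 2251 exon counts in wtSRCAP control and 5385 and 3703 with IAA, and 2663 and 2067 in cdSRCAP control and 4336 and 2902 with IAA. The first replicate was the higher in all 4 groups, the wtSRCAP groups overlapped and the cdSRCAP groups did not. Within each of the 4 pairs of libraries with the same line and replicate number, the IAA library was the higher. The first wtSRCAP control and IAA libraries, which had the highest Chd7 counts of their treatments, also stood apart in differentiated cell markers, with a summed RPKM of 37.4 and 33.0 against 9.93 to 12 in the other 6 libraries, and the part of this in the Chd7 values was not tested. The log2 fold change was 0.54 ± 0.333 with wtSRCAP (unadjusted p = 0.139, edgeR) and 0.61 ± 0.333 with cdSRCAP (unadjusted p = 0.0968), and their difference was 0.08 ± 0.469. The 2 replicates per group thus leave room for a difference between the SRCAP forms of several times that size in either direction. Leaving out 1 library moved the wtSRCAP value between 0.18 (without the second control) and 1.00 (without the first control), and the cdSRCAP value between 0.27 (without the first IAA library) and 0.88 (without the second IAA library).

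In introns Chd7 had 1647 and 1099 counts in wtSRCAP control and 2203 and 1567 with IAA, and 1125 and 994 in cdSRCAP control and 1769 and 1618 with IAA. The cdSRCAP groups were apart by more than their replicates, with a log2 fold change of 0.68 ± 0.224 (unadjusted p = 0.0135, adjusted p = 0.287, edgeR), and the wtSRCAP groups overlapped, at 0.45 (unadjusted p = 0.071). Without a filter on low counts edgeR called Chd7 in the cdSRCAP introns (adjusted p = 0.00975), and DESeq2 gave an adjusted p of 0.0995, within a range of 3.383e-05 to 0.284 over the alternatives that keep all libraries. The difference between the responses was 0.22 and had no unadjusted p under 0.05. Chd4 had 947 and 1015 intron counts in wtSRCAP control and 1551 and 1175 with IAA, without overlap, and its log2 fold change was 0.47 ± 0.165 (unadjusted p = 0.0179, adjusted p = 0.28, edgeR), which was 0.25 without the first IAA library and 0.65 without the second.

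In the main edgeR fit, 0 of the 10 genes were called in wtSRCAP and cdSRCAP cells with IAA, in exons or introns. That fit has a filter on low counts and no block for replicate number. With that block edgeR called Chd7 in wtSRCAP exons (log2 0.57, adjusted p = 0.0286), cdSRCAP exons (0.59, adjusted p = 0.0309) and cdSRCAP introns (0.68, adjusted p = 0.0218), where it called 3.2%, 1.81% and 2.52% of all genes. DESeq2 without the block also called 0, where it called 0.0965% and 0.0426% of all genes in exons and 2.1% and 1.5% in introns. At an unadjusted p under 0.05 in the main edgeR fit there were 0 in exons for both lines, against 7.4% and 5.64% of all genes. In introns there was 1 each (Chd4 and Chd7), against 12.4% and 11.3%. That fit called 0.00523%, 0%, 0.299% and 0.236% of all genes. In exons 1 gene (Chd4) lay above control in both wtSRCAP libraries and 4 (Chd1, Chd7, Chd8 and Atrx) in both cdSRCAP libraries, where 14.9% and 18.7% of all genes did. Between the SRCAP forms, exon differences ran from -0.41 (Atrx) to 0.06 (Chd2) in control and from -0.42 (Chd4) to 0.24 (Smarca2) with IAA, with 0 called by edgeR or DESeq2 and 0 at an unadjusted p under 0.05, against 3.82% and 5.03% of all genes, where edgeR called 0% and 0.00523% and DESeq2 0.175% and 0.0183%. Smarca1 showed the spread of this table best, at 159.5, 170.3, 288 and 346 counts in the first replicates and at 729.5, 773, 533 and 628 in the second ones, so that replicates differed more than treatments. Chd8 was at 0 in the intron columns of these cells, of CGR8 and of LG1, although its exons were counted.

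**Figure D4:**
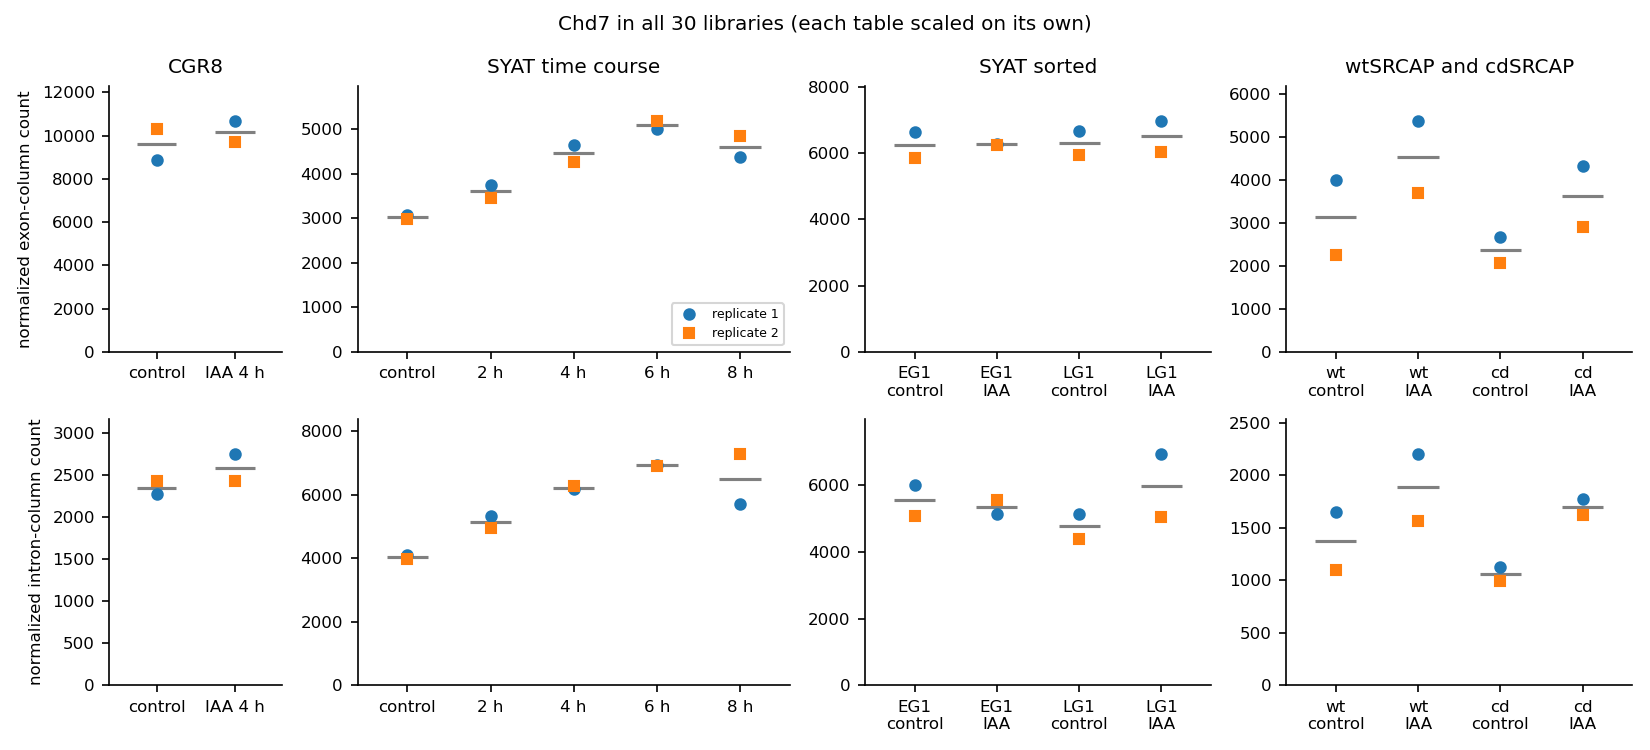
Normalized counts of Chd7 in all 30 libraries, with exons in the upper row and the intron columns in the lower row, points for replicates and grey lines for the mean of 2, each table scaled on its own. The time course libraries lie at 2991 and 3076 in control and at 5014 and 5197 at 6 h, and IAA and control overlap in CGR8 and sorted cells.

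The relatives and partners of these enzymes give the setting. Of 22 other SNF2 family ATPase genes, 0 were called at any time of the SYAT course in exons, and at an unadjusted p under 0.05 by edgeR 0, 3, 3 and 5 were lower and 0 were higher at 2, 4, 6 and 8 h, where 2.55%, 6%, 8.21% and 8.44% of all genes were lower and 1.37%, 3.09%, 7.93% and 5.13% were higher. Among those named by p-value, Ercc6l2, a repair-linked helicase, had log2 fold changes of -0.44, -0.81 and -0.66 at 4, 6 and 8 h (edgeR adjusted p = 0.477, 0.0829 and 0.146). Smarcal1 and Zranb3, which anneal DNA at stalled replication forks, had -0.69 and -0.73 at 6 h (edgeR adjusted p = 0.0936 and 0.118). Chd1l, a remodeller drawn to poly(ADP-ribose), had -0.59 at 8 h (edgeR adjusted p = 0.163).

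Of 22 SWI/SNF subunit genes 0 were called, 0 were higher and 1, 0, 4 and 4 lower at an unadjusted p under 0.05 (2.55%, 6%, 8.21% and 8.44% of all genes were lower), among them Bicra at 2 h (log2 -0.37) and Smarcc2 at 8 h (log2 -0.57, edgeR adjusted p = 0.148). Of 12 NuRD subunit genes 0 were called, and 0, 0, 4 and 0 were higher at an unadjusted p under 0.05, where 7.93% of all genes were higher at 6 h. At 6 h Chd4 was high in the second library as well, and the part of that library in the count was not tested. Of 9 ISWI partner genes 0 were called and 0, 2, 1 and 2 were higher (1.37%, 3.09%, 7.93% and 5.13% of all genes), among them Baz1a, the ACF1 partner of ISWI, with 0.52 at 4 h and 0.77 at 6 h (edgeR adjusted p = 0.421 and 0.102), and 1 was lower at 4 h. Daxx, the partner of Atrx, had no unadjusted p under 0.05 in the time course and 0.48 in wtSRCAP cells with IAA (edgeR adjusted p = 0.666). In those cells Ercc6l2 (log2 -0.83), Smarcal1 (-0.67) and Rad54b (-0.57) had smaller p-values (edgeR adjusted p = 0.641, 0.651 and 0.658). In cdSRCAP cells with IAA, Arid1b (0.55), Bicra (-0.54) and Ercc6 (-0.48) had an unadjusted p under 0.05 (edgeR adjusted p = 0.87, 0.872 and 0.883). In CGR8 cells Hltf (log2 0.43), Mbd3 (-0.37) and Bcl7c (-0.36) had an unadjusted p under 0.05 (edgeR adjusted p = 0.54, 0.543 and 0.544).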

How the data were processed

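Nuclear RNA-seq libraries were prepared with a directional kit and sequenced as paired-end reads. The authors aligned reads to mm10 with STAR, filtered them with SAMtools and Picard, and deposited raw counts of reads per gene from featureCounts, with exon and intron columns in 4 tables. Groups came from the sample labels. Symbols were matched from GENCODE vM21 (55141 of 55401 identifiers without version).

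Counts were tested in R 4.3.3 with edgeR 4.0.16 (TMM scaling, filterByExpr with a minimum count of 10 and total of 15, quasi-likelihood test) over all genes of a table, with Benjamini-Hochberg adjustment and all groups of the table in 1 fit. A call needed an adjusted p under 0.05 and an absolute log2 fold change over 0.5. Normalized counts are comparable within a table only. DESeq2 1.42.0, other scaling, no filter, a replicate block, the compared groups alone and leaving out each library were alternatives. The tests were tried on simulated data with changes larger than those of Chd7 in the main fits. That trial cannot show how often changes of its size would be called.

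The 10 genes and all lists were chosen with earlier results of these data known. All 10 genes are named, with full statistics where an unadjusted p was under 0.05, and of the lists at most the 4 genes with the smallest p per comparison. The 5 genes most like Chd7 were taken by Pearson correlation.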

Additional observations from a re-analysis of the deposited data

How the results depend on the processing

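Counts of called genes were 0 in 27 results, and 295 of 319 alternative values stayed at 0. The other 24 were 1 or 2. Chd7 was the 1 gene called in SYAT exons at 6 and 8 h without a filter on low counts and with DESeq2, in the SYAT intron columns at 4, 6 and 8 h with DESeq2, and in cdSRCAP introns without a filter. Leaving out 1 library, with a lone sample assumed to vary like the other groups, gave 0 to 2 calls at 6 h in exons and in introns, the 2 (Chd7 and Chd4) without the first 6 h library. The cause was not tested. For the 9 fold changes given with full statistics, 0 of 94 alternative values changed direction. Chd7 values near 0 in CGR8, EG1 and LG1 exons took either sign as libraries were left out (-0.08 to 0.11 in EG1).

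A block for replicate number in edgeR led to 1 call, Chd7, in SYAT exons at 6 h (log2 0.75, adjusted p = 0.0168) and 8 h (0.60, adjusted p = 0.0255), in wtSRCAP exons (0.57, adjusted p = 0.0286), in cdSRCAP exons (0.59, adjusted p = 0.0309) and in cdSRCAP introns (0.68, adjusted p = 0.0218). DESeq2 with the block called 1, again Chd7, in these and in SYAT exons at 4 h and the SYAT intron columns at 4, 6 and 8 h. The block in edgeR called 4.29%, 3.3%, 3.2%, 1.81% and 2.52% of all genes in those 5 results. The labels give the numbers no shared origin. Deviations of same-numbered libraries correlated at 0.254 to 0.572 between SYAT groups other than 6 h and at -0.039 to 0.053 with 6 h in exons, and in the wtSRCAP and cdSRCAP table at 0.23 to 0.343 in exons (6 of 6 pairs of groups) and 0.067 to 0.28 in introns.

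The wtSRCAP and cdSRCAP table had 2 replicates per group and a median coefficient of variation of 0.291. There the main edgeR fit, without the block, gave Chd7 exon differences unadjusted p = 0.139 (wtSRCAP) and 0.0968 (cdSRCAP). Without a filter on low counts edgeR gave unadjusted p = 0.0472 and 0.0208, and neither difference passed the adjusted threshold. The cdSRCAP groups did not overlap in exons.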
